A study of Drosophila melanogaster with 3 samples.

Results

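Uextra is the part of the fruit fly genome assembly that collects small shotgun scaffolds with no place on a chromosome, joined end to end into a single artificial sequence. Of the 4751 peaks of dH1K27me2 called in S2 cells, 2343 lay on Uextra, and 2123 of these had their midpoint before 28 Mb. These 2123 peaks are described here. They were chosen by position alone, and they made up 44.7% of the list and 90.6% of the peaks on Uextra. The mark was mapped by chromatin immunoprecipitation and sequencing with a rabbit antibody made in the submitters' laboratory. S2 is an established Drosophila melanogaster cell line, labelled wild type, with no treatment. The labels give 2 immunoprecipitated samples, compared with 1 input sample (sonicated S2 chromatin with no antibody step). Peaks were called after the immunoprecipitated libraries were merged, so no value below has a replicate error and none of the differences between sequences was tested. No other assay of the mark was analysed here, so the specificity of the antibody was not checked.

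dH1 is the somatic linker histone of Drosophila. Linker histones bind nucleosomes where the DNA enters and leaves, and they help to compact chromatin. In flies dH1 is needed for the structure of pericentric heterochromatin and for the silencing of transposable elements. Dimethylation of lysine 27 places a methyl mark on the linker histone itself and is distinct from the better known methylation of lysine 27 on histone H3. Scaffolds that cannot be placed on a chromosome are often rich in repeats, and many of them come from heterochromatin. Neighbours on Uextra need not be neighbours in the fly genome, so a distance between peaks there is a distance in the joined sequence. Positions are 1-based coordinates of the dm3 assembly. No annotation or sequence of Uextra was used here, so the repeats or genes under the peaks are not named.

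Peaks ran along the whole stretch, with a longest gap of 122730 bp, and they were densest at its start. The mean was 75.8 peaks per Mb, and the peaks covered 3080 kb or 11.0% of the 28 Mb. In windows of 1 Mb the number ran from 54 to 121, with a median of 78.5. The first window, from 1 to 1000000, held 121 peaks and was 25.4% covered. The next fullest were the windows 3000001 to 4000000 and 4000001 to 5000000, with 87 peaks each. The sparsest were 22000001 to 23000000 with 54 peaks, 25000001 to 26000000 with 55 and 20000001 to 21000000 with 59. Later windows held fewer peaks than earlier ones. The median was 65.5 peaks in windows 15 to 28 and 82.5 in windows 1 to 14, a ratio of 0.794. The ranges of these sets overlapped, at 54 to 82 peaks in windows 15 to 28 and 72 to 121 in windows 1 to 14.

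**Figure D1:**
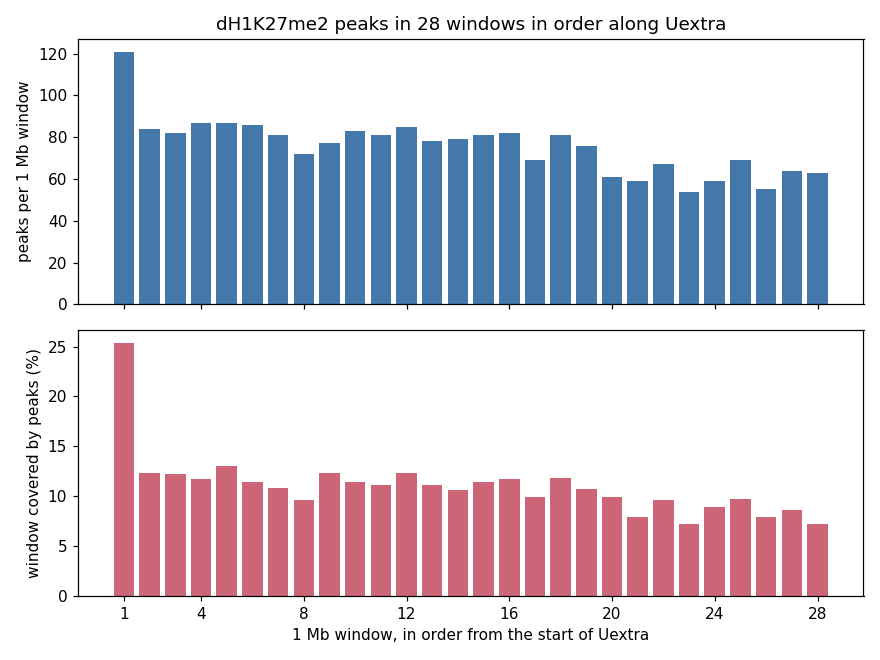
Number of dH1K27me2 peaks (upper bars) and percentage of bases covered by peaks (lower bars) in each of the 28 windows of 1 Mb, in order from the start of Uextra. The first window stands above the others with 121 peaks and 25.4% of its bases covered, and the sparsest, window 23, holds 54 peaks.

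At a finer scale the counts varied about as much as their mean. Each of the 280 windows of 100 kb held at least 1 peak, with a median of 7.5 and a highest count of 17. The variance of these counts was 0.967 times their mean. The mean was 12.1 peaks per window in the first 1 Mb and 7.41 after it. The same ratio was 7.29 on Uextra from 28 Mb, 3.00 on the unassigned scaffolds of U, 1.98 on the Het sequences (heterochromatic scaffolds assigned to a chromosome) and 10.5 on the arms and chromosome 4. On U 11 of 101 such windows were empty, and on the arms 991 of 1164 were.

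The first 1 Mb held wider, higher-scoring and more closely spaced peaks than the rest. Its 121 peaks had a median width of 1659 bp and a median score of 168.94, whereas the 2002 peaks after it had a median width of 1242 bp and a median score of 100.9. The score is the authors' own value for each peak and is used only to rank and describe peaks within the list. Within the first 1 Mb, width and score declined with distance from the start. The first 250 kb held 34 peaks with a median width of 2857.5 bp and a median score of 261.7. The second 250 kb also held 34 peaks, with medians of 1852.5 bp and 201.8. The next 250 kb held 31, with medians of 1308 bp and 114.2, and the last held 22, with medians of 1250 bp and 106.6. The values at 750 to 1000 kb were thus close to those of the remaining 27 Mb. The median gap to the next peak was 3526 bp in the first 1 Mb and 8011 bp after it. Peaks wider than 3500 bp numbered 16 in the first 1 Mb and 11 in all that followed.

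Most peaks were narrow, and their widths gathered in bands. The widths ran from 415 to 5896 bp, with a median of 1256 bp and an interquartile range of 1068 to 1697 bp. In bins of 100 bp, the fullest held 384 peaks of 1000 to 1100 bp. There were 89 peaks of 1400 to 1500 bp, between this maximum and a second one of 146 peaks of 1600 to 1700 bp. Beyond that, 18 peaks were 2200 to 2300 bp wide. Widths of 2300 to 2700 bp held 22, 19, 24 and 20 peaks per bin, a flat stretch rather than a further decline. On the Het sequences the fullest bin, 1100 to 1200 bp, held 66 of 1042 peaks, and the bins between 1400 and 1800 bp held 34 to 39 peaks each. The arms and chromosome 4 had 24 to 34 peaks per bin over the same widths. On U the counts were 41 at 1100 to 1200 bp, 34 at 1400 to 1500 bp and 31 at 1600 to 1700 bp. A second maximum was not particular to these members. Uextra from 28 Mb, with 220 peaks, had 32 of 800 to 900 bp, 3 of 1400 to 1500 bp and 10 of 1600 to 1700 bp.

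From 8 Mb on, the second band lay at smaller widths in later parts of Uextra. For this the 28 Mb were divided into 7 stretches of 4 Mb, numbered 1 to 7 from the start. Stretch 1 had 75 peaks of 1100 to 1200 bp, 14 of 1500 to 1600 bp and 7 of 1700 to 1800 bp, with a small second maximum of 14 peaks of 1900 to 2000 bp. In stretch 2 there were 8 peaks of 1500 to 1600 bp, and the numbers then stood at 17 for 1700 to 1800 bp and again for 2000 to 2100 bp. In stretch 3 the second maximum was 25 peaks of 1800 to 1900 bp. Stretch 4 had 22 peaks in each of the bins 1700 to 1800 and 1800 to 1900 bp. Stretch 5 had 39 peaks of 1700 to 1800 bp, close to the 42 in its fullest bin of 1000 to 1100 bp. In stretch 6 the second maximum was 38 peaks of 1600 to 1700 bp, beside 40 of 1000 to 1100 bp. In stretch 7 it was 28 peaks of 1500 to 1600 bp, beside 30 of 900 to 1000 bp. The median of all widths between 1400 and 2200 bp was 1648.5 bp in stretch 1, 1798 bp in stretch 2, 1807 bp in stretch 3, 1769 bp in stretch 4, 1704 bp in stretch 5, 1645 bp in stretch 6 and 1607 bp in stretch 7.

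In some stretches a sparser band lay above the second. Its limits were read from the counts of each stretch after they were seen. Stretch 4 had 0 peaks of 2200 to 2400 bp and 14 peaks of 2400 to 2700 bp. Stretch 6 had 0 peaks of 2000 to 2200 bp and 13 of 2200 to 2600 bp. Stretch 5 had 2, 1 and 1 peaks in the bins from 2000 to 2300 bp, then 3, 4, 6 and 6 up to 2700 bp. Stretch 3 had 1 peak in each bin from 2200 to 2500 bp, then 2, 6 and 3 up to 2800 bp. Stretches 1, 2 and 7 showed no separate band there. Stretch 1 had 6 or 7 peaks in each bin from 2000 to 2600 bp, stretch 2 had 0 peaks from 2400 to 2700 bp, and stretch 7 had 4 to 6 peaks in each bin from 2000 to 2400 bp. The lower edge of the widths also lay lower in the later stretches. Peaks narrower than 1000 bp made up 3.74% of stretch 1, 6.44% of stretch 2, 9.51% of stretch 3, 13.1% of stretch 4, 15.0% of stretch 5, 18.4% of stretch 6 and 29.5% of stretch 7. The 3 narrowest peaks were 415 bp at 26138258 to 26138672, 433 bp at 13785292 to 13785724 and 438 bp at 24694241 to 24694678. They scored 121.45, 184.92 and 52.04, so narrowness did not always go with a score near the lowest in the list, 50.02.

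**Figure D2:**
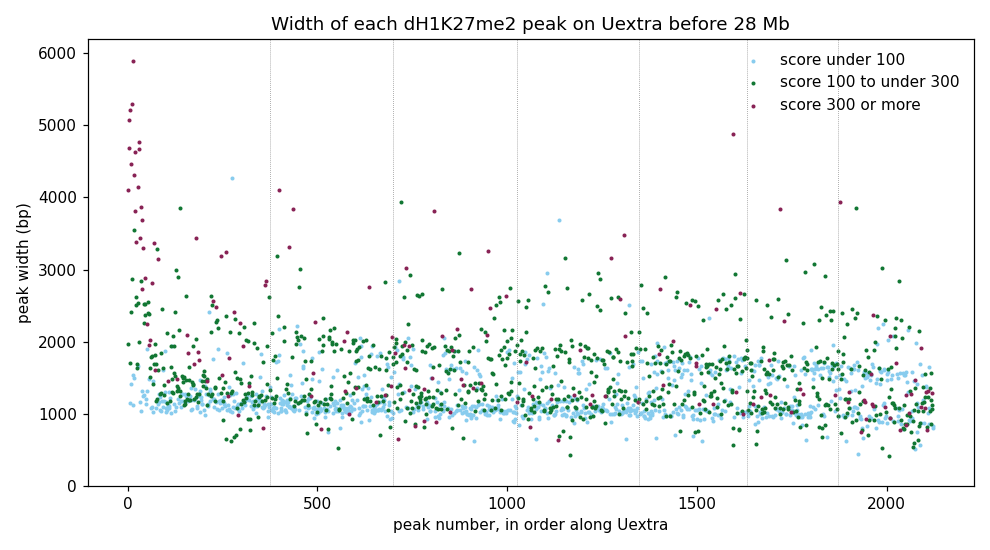
Width in bp of each of the 2123 peaks against its number in order along Uextra, coloured by score class, with dotted lines between the 7 stretches of 4 Mb. Points gather in a band near 1000 to 1100 bp and in a second band whose fullest bin lies at 1800 to 1900 bp in stretch 3 and at 1500 to 1600 bp in stretch 7, while the widest peaks crowd at the far left.

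The 5 widest peaks were mostly at the start. Of these, 4 lay in the first 100 kb. They spanned 5896 bp at 83130 to 89025, 5297 bp at 75054 to 80350, 5207 bp at 45653 to 50859 and 5077 bp at 28268 to 33344, with scores of 723.59, 577.04, 1290.2 and 540.82. The fifth lay apart from them, at 19486455 to 19491334. It was 4880 bp wide, scored 489.53 and had its nearest neighbour 7688 bp away.

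Scores were low for most peaks, with a long upper tail. The median was 102.2 and the interquartile range 70.1 to 164.8. Scores from 50 to under 70 were held by 529 peaks or 24.9%, and scores of 500 or more by 45 peaks or 2.12%. A score of at least 300 was reached by 7.63% of peaks, against 42.7% on Uextra from 28 Mb, 25.0% on U, 40.1% on the Het sequences and 33.7% on the arms and chromosome 4. Along Uextra the median score per window of 1 Mb ran from 81.53 in window 7 to 168.94 in window 1. It showed no decline like that of the counts. The median over windows was 101.6 for windows 15 to 28 and 102.2 for windows 1 to 14.

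The 10 highest scores came from both wide and narrow peaks. A peak of 4764 bp at 204116 to 208879 had the score of 3100, the highest in the list, which 4 peaks shared. Next to it, 4157 bp away, a peak of 4677 bp at 195282 to 199958 scored 2094.71. Also in the first 300 kb were a peak of 5207 bp at 45653 to 50859 with 1290.2, one of 2724 bp at 278232 to 280955 with 1252.1 and one of 3871 bp at 256451 to 260321 with 1147.26. The other 5 lay beyond 3 Mb and were all narrower than 1500 bp. The peak at 27346321 to 27347785 was 1465 bp wide and scored 2552.86, and its nearest neighbour was 18719 bp away. The peak at 5223660 to 5224906 was 1247 bp wide and scored 2124.38. At 6345808 to 6347130 a peak of 1323 bp scored 1272.85. The narrowest of the set were 797 bp at 3809201 to 3809997, with 1197.09, and 646 bp at 8133257 to 8133902, with 1153.71.

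Score and width were closely related in the first stretch and nearly unrelated in the last one before 28 Mb. Over the 2123 peaks Spearman's rho was 0.43, given as a description because peaks of 1 list share their libraries and their input. In stretches 1 to 7 it was 0.68, 0.54, 0.50, 0.43, 0.44, 0.28 and 0.09. In the first 1 Mb alone it was 0.86, near the 0.80 of U, the 0.87 of the Het sequences and the 0.82 of the arms and chromosome 4. On Uextra from 28 Mb it was 0.54.

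The bands of width showed in the relation of score and width. The 863 peaks of 1000 to under 1300 bp had a median score of 83.5. The 210 peaks of 1300 to under 1500 bp had a higher median of 125.4. The 465 peaks of 1500 to under 1900 bp again had a lower median of 103.8. Beyond these widths the median climbed to 161.3 for the 176 peaks of 1900 to under 2400 bp and to 244.9 for the 140 peaks of 2400 bp or more. Score therefore did not climb steadily with width across these classes. Stretch 1, with a median score of 123.6, held 26 peaks in each bin from 1300 to 1500 bp. Position along Uextra was thus not separated from width. Seen the other way, the 529 peaks that scored under 70 had closely similar widths, with a median of 1063 bp and an interquartile range of 1005 to 1186 bp. The 117 peaks that scored 300 to under 500 had a median of 1564 bp and an interquartile range of 1197 to 2449 bp.

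**Figure D3:**
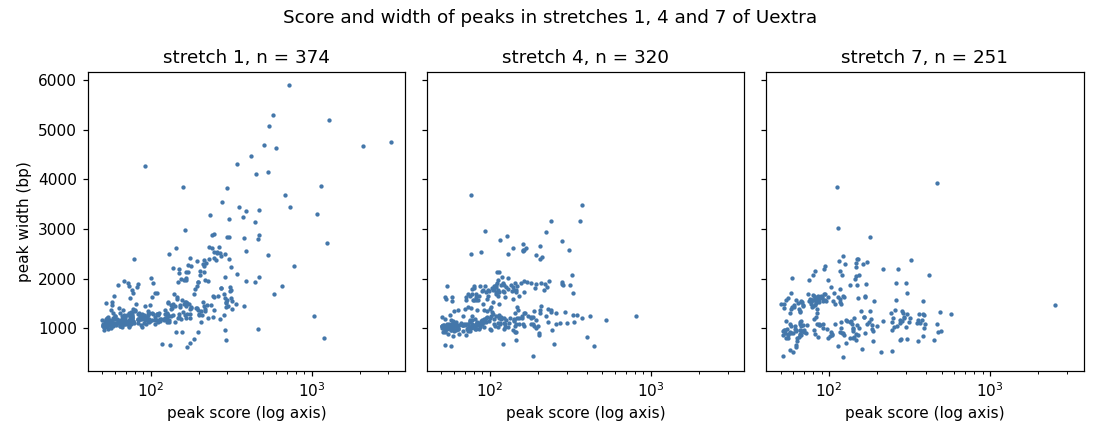
Width in bp against score (log axis) for the peaks of stretch 1 (374 peaks), stretch 4 (320 peaks) and stretch 7 (251 peaks) of Uextra, 1 point per peak. In stretch 1 width climbs with score, at a rho of 0.68, while in stretch 7 narrow peaks occur at all scores and rho is 0.09.

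Few peaks were truly isolated and few stood in dense groups. Gaps, the bases between adjacent peaks, had a median of 7712 bp, with an interquartile range of 3112.5 to 16092.5 bp. The last gap runs to the first peak beyond 28 Mb. The nearest other peak lay within 1 kb for 392 peaks, which is 18.5% (95% Wilson interval 16.9 to 20.2%, covering the counting of peaks only). That interval treats peaks as independent, although both peaks of a pair count as grouped, so it is likely too narrow. On Uextra from 28 Mb the share with a neighbour within 1 kb was 62.7%, on U 39.8%, on the Het sequences 68.4% and on the arms and chromosome 4 48.7%. The densities were 75.8 peaks per Mb here and 219.2, 61.3, 118.1 and 6.47 there, in that order. The shares were not adjusted for density. At the other extreme, peaks with none within 50 kb made up 0.05% here and 0% on Uextra from 28 Mb. They made up 0.65% on U, 0.19% on the Het sequences and 12.9% on the arms and chromosome 4, again unadjusted. Among the members, 80 peaks had no other peak within 20 kb and 1 had none within 50 kb. That peak lay at 23791567 to 23793073, scored 74.3 and was 50649 bp from its nearest neighbour. The next most isolated peak, at 19339568 to 19340867, was 45989 bp from one neighbour and 122730 bp from the other, the longest gap. The remaining 3 of the 5 most isolated lay at 13557847 to 13559701, 24101190 to 24101927 and 21223627 to 21224854. Their nearest neighbours were 40127, 39715 and 37375 bp away, and their scores were 147.72, 188.93 and 130.93.

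Grouped and solitary peaks resembled each other. The 392 peaks with a neighbour within 1 kb had a median width of 1300 bp and a median score of 108.0. The 1355 peaks whose neighbour was 1 to 10 kb away had medians of 1257 bp and 102.2. Among the 376 peaks with no other peak within 10 kb the medians were 1215.5 bp and 97.0. Nor did adjacent peaks resemble each other in score. The rank correlation of a peak's score with that of the next peak was 0.005 over 2122 pairs, and 0.01 over the 775 pairs less than 5 kb apart. It was 0.19 on U, 0.12 on the Het sequences and 0.13 on the arms and chromosome 4, and 0.04 on Uextra from 28 Mb.

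Runs of peaks separated by gaps under 5 kb were short. Such runs numbered 1348, of which 869 were single peaks, 294 were pairs and 119 were triplets. Runs of 4 or more held 14.6% of the peaks. On Uextra from 28 Mb they held 78.6%, on U 35.9%, on the Het sequences 72.6% and on the arms and chromosome 4 52.7%. These shares were not adjusted for density either. The largest run had 9 peaks and spanned 35655 bp, from 66358 to 102012, with scores from 57.55 to 723.59. It included the widest peak. A run of 7 peaks lay from 295553 to 319749, with a median score of 256.86. The other runs of 7 lay at 13250346 to 13275602, 24263432 to 24288312 and 10917205 to 10946363. Their median scores were 79.75, 140.63 and 79.16, below those of both runs in the first 1 Mb.

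**Figure D4:**
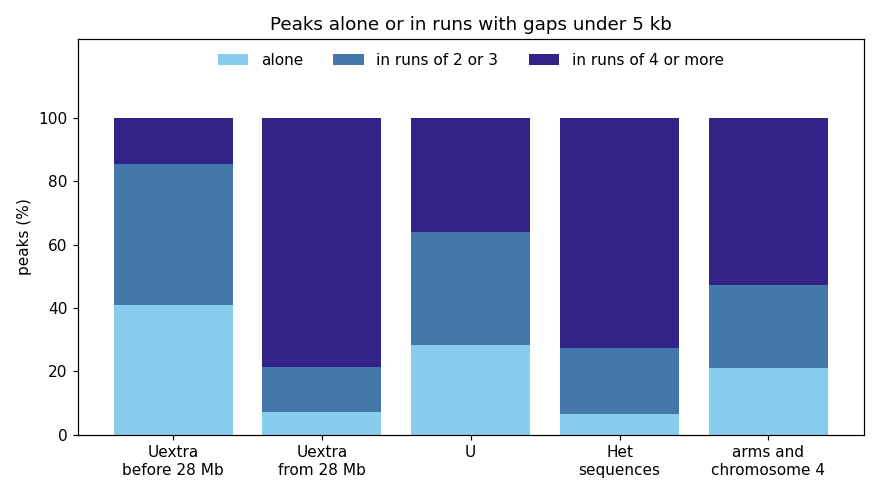
Percentage of peaks that stand alone, in runs of 2 or 3 and in runs of 4 or more, where neighbours in a run are less than 5 kb apart, for Uextra before 28 Mb and the other classes of sequence. Runs of 4 or more hold 14.6% of the peaks on Uextra before 28 Mb, the lowest of the classes, and 78.6% on Uextra from 28 Mb.

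The short gaps, like the widths, favoured certain lengths. Between 8 and 24 Mb, the stretches 3 to 6, gaps under 4 kb were counted in bins of 200 bp. From 0 to 800 bp these bins held 11, 20, 34 and 34 gaps. From 800 to 1600 bp they held 9, 8, 25 and 20. From 1600 to 2400 bp the counts were 10, 8, 17 and 21, from 2400 to 3200 bp they were 10, 13, 23 and 29, and from 3200 to 4000 bp they were 9, 10, 18 and 18. In each of these 5 spans of 800 bp the upper 400 bp held more gaps than the lower 400 bp, 239 gaps against 108 in all. The span and its upper 400 bp were chosen after these counts were seen, so they are a description. The other sequences were counted with the same choice, which favoured a higher share between 8 and 24 Mb. A different spacing elsewhere would not show in these shares. The upper 400 bp of each span held 68.9% of gaps under 4 kb there. They held 43.6% between 0 and 8 Mb and 55.9% between 24 and 28 Mb. They held 44.8% on Uextra from 28 Mb, 36.9% on U, 36.0% on the Het sequences and 35.8% on the arms and chromosome 4, where gaps under 400 bp were the most frequent. Among gaps of at least 800 bp the shares were 69.0% between 8 and 24 Mb, 47.1% on Uextra from 28 Mb, 46.4% on U, 44.6% on the Het sequences and 47.6% on the arms and chromosome 4.

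**Figure D5:**
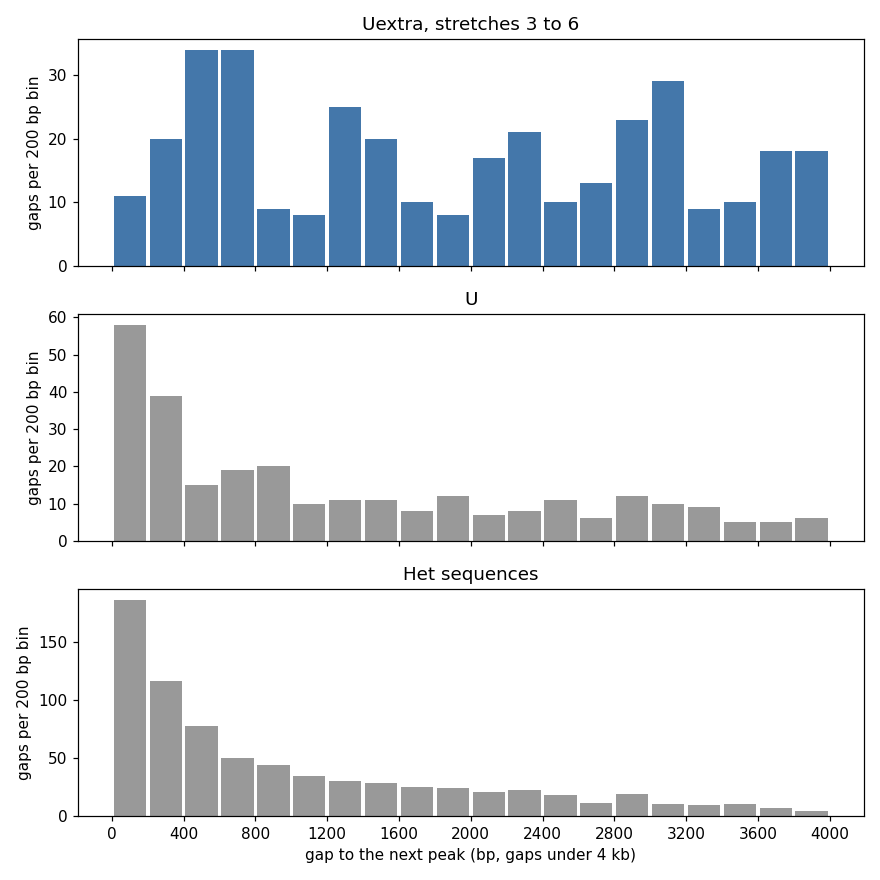
Number of gaps to the next peak in bins of 200 bp, for gaps under 4 kb, on stretches 3 to 6 of Uextra (8 to 24 Mb), on U and on the Het sequences. On Uextra fuller bins, of 17 to 34 gaps, alternate with emptier ones, of 8 to 20 gaps, about every 800 bp, while on U and the Het sequences the shortest gaps are the most frequent and the counts decline.

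The favoured spacing was estimated in each stretch as the length, among candidates from 600 to 1100 bp in steps of 10 bp, that left the gaps under 5 kb with the most similar remainders. Similarity was measured by a concentration that is 0 for evenly spread remainders and 1 for identical ones. The spacing was 850 bp in stretch 3, 830 bp in stretch 4, 820 bp in stretch 5 and 760 bp in stretch 6. The number of gaps used was 120, 131, 95 and 70 in that order. The concentration at these spacings was 0.292, 0.412, 0.407 and 0.428, where the median over all candidates was 0.132, 0.119, 0.176 and 0.121. The best candidate always exceeds the median, so these pairs show size and are no test. In stretches 1, 2 and 7 the highest concentration was lower, at 0.194, 0.244 and 0.220, and the candidate that gave it changed with the settings. Stretch 3 lay between these and stretches 4 to 6 in concentration. Its spacing was 1040 bp when only gaps under 3 kb were used. Single arms with few gaps also reached high concentrations, such as 0.480 on 2L with 89 gaps, where the median over candidates was 0.305. In stretches 3 to 6 the distance between the fullest bins of the first and the second width band was 600 to 800 bp, beside spacings of 760 to 850 bp. Distances in that range also occurred at 700 bp in stretch 2, taking the lower of its equally full bins, and at 600 bp in stretch 7. In both stretches the spacing moved with every setting tried. On Uextra from 28 Mb the distance was 800 bp. With the fullest bin from 1400 to 2200 bp taken as the second, smaller distances occurred too. They were 300 bp in stretch 1, on U and on the arms and chromosome 4, and 500 bp on the Het sequences. Whether the distances and the spacings are linked was not tested.

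The boundary at 28 Mb fell in a gap of 14775 bp. The last members were peaks of 824 bp at 27997383 to 27998206 and of 805 bp at 27998838 to 27999642, with scores of 65.25 and 56.03. The first peaks beyond it were 1123 bp wide at 28014418 to 28015540, with a score of 307.66, and 779 bp wide at 28029209 to 28029987, with a score of 59.15. Uextra before 28 Mb had 75.8 peaks per Mb and Uextra from 28 Mb to its last peak 219.2 per Mb, a ratio of 0.346. U had 61.3 peaks per Mb, the Het sequences 118.1 and the arms and chromosome 4 had 6.47, each measured to the last peak of the sequence. Peaks wider than 2500 bp made up 5.70% of those before 28 Mb and 5.91% of those from 28 Mb on, against 33.5% on U, 50.4% on the Het sequences and 44.9% on the arms and chromosome 4.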

How the data were processed

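ChIP-seq of dH1K27me2 in S2 cells was analysed from 1 list of peaks with the score deposited by the authors for each peak. Per the file's name, the immunoprecipitated libraries were merged and compared with the input. The submitters' processing notes name Bowtie 0.12.5, MACS 1.4 and 1.4.2 and the build dm3. Settings, the treatment of reads that match several places and the scale of the score are not given in the sources used here. That name holds 1 of the library numbers in the first sample's title, so its other run may not have entered. Read depth is unknown.

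Members were peaks on Uextra with a midpoint before 28 Mb. Windows were assigned by midpoint. Grouped means a neighbour within 1 kb, isolated means none within 50 kb, and runs have gaps under 5 kb. Peaks were named by rank of score, width, isolation and run size, and windows by count. The members and measures were chosen with earlier results of these data known, and the bands, stretches and spacings after seeing the values. Python 3.11.15, pandas 2.3.3 and scipy 1.17.1 were used, and the spacing estimate was tested on simulated data. The simulated gaps lay close to multiples of a known spacing, so recovery at the concentrations seen here was not checked. The list holds pooled peaks, so no test was made.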

Additional observations from a re-analysis of the deposited data

How the results depend on the processing

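Without replicates or read counts, no value here carries biological error, and depth limits cannot be stated. Of 32 alternative values, 21 stayed within the 95% interval of a median or share, 1.5 times a density or 0.1 of a correlation, 11 moved beyond that and 0 reversed. With only the 1087 peaks scoring at least 100, the median width was 1485 bp, the median score 162.95, the median gap 16091 bp, the share with a neighbour within 1 kb 11.7%, rho of score and width 0.17 and the density ratio to Uextra from 28 Mb 0.214. Fewer peaks and a narrower range of scores enter by construction. With peaks less than 1 kb apart merged into 1911 regions, the median width was 1316 bp and the median gap 8983 bp. Without the first 1 Mb, a setting added after seeing the data, 16.6% had a neighbour within 1 kb. Over all members, a limit of 5 or 10 kb in place of 1 kb gave 59.1% or 82.3%. The decline in counts between windows 1 to 14 and 15 to 28 kept its direction under every setting tried, at ratios of 0.765 to 0.855. The spacing of gaps, tried with limits of 3 and 8 kb and with peaks scoring at least 70, was 750 to 840 bp in stretches 4 to 6. In stretch 3 it was 1040 bp with gaps under 3 kb and 880 to 890 bp otherwise. In stretches 1, 2 and 7 it ran from 680 to 1040 bp. The cause was not tested. No paired analysis was possible because all peaks come from pooled samples, and for the same reason no replicate could be left out.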
